A study of Homo sapiens with 15 samples.

Results

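The comparison set MRC5 fibroblasts grown with the tumour line H196 (MRC5_CoH196, 3 libraries) against MRC5 fibroblasts grown with the tumour line H69 (MRC5_CoH69, 3 libraries), that is, 6 of the 15 libraries of the study, over every gene of the MRC5 table. Both groups were co-cultures, so what differed between them was the partner: H69 is a small cell lung cancer (SCLC) line of the neuroendocrine (NE) type and H196 a SCLC line of the non-NE type. With 1 line of each type, NE type cannot be told apart from any other trait of these lines. MRC5 is a single human lung fibroblast line, used here to stand for cancer-associated fibroblasts (CAFs). A transwell membrane, which lets soluble factors pass, kept the populations apart, and RNA was taken after a week of co-culture. MRC5 grown alone (MRC5_Mo, 3 libraries) served as the reference level beside named genes, and H196 grown alone or with MRC5 (6 libraries) served to find genes that mark H196 RNA and to estimate and subtract that RNA. The 3 libraries of a group were parallel replicates of 1 line, so p-values measure the spread between these libraries, which may be technical. In such bulk libraries fewer cells of a kind and less RNA per cell cannot be told apart.

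CAFs are fibroblasts that tumour cells have changed, and they are known for making collagen matrix, growth factors and cytokines. Cells tune glucose use and blood vessel signals through the hypoxia-inducible factors (HIFs): when oxygen is plentiful the EGLN prolyl hydroxylases mark the HIF alpha subunits for removal through VHL, and otherwise an alpha subunit pairs with ARNT and binds DNA at a core written ACGTG. Genes that HIF switches on include glucose transporters, most glycolytic enzymes, VEGFA and CA9.

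The libraries held 18476883 to 19170550 counts in MRC5_CoH196, 18587946 to 19106674 in MRC5_CoH69 and 18554494 to 18817199 in MRC5_Mo, so depth differed little between groups. Levels are given as CPM, counts relative to a library's size after the TMM scaling of edgeR, except that the marker sums and the floor in this paragraph are relative to library totals alone. A count of 0 allows a level of up to 0.156 to 0.162 CPM by counting error alone. The labelled cell type was checked on 11 fibroblast markers, none of which was at 0 in any library. Their summed level was 21660 to 22854 CPM in MRC5_CoH196 against 36556 to 37664 CPM in MRC5_CoH69, a gap that lay mostly in COL1A1 and COL1A2. Of 17 NE markers 10 were listed, and they summed to 6.80 to 8.02 CPM in MRC5_CoH69 and 8.11 to 9.15 CPM in MRC5_CoH196, against 8.48 to 9.41 CPM in MRC5_Mo. Of 4 listed leukocyte markers all stayed under 1 CPM in every library. The 11 epithelial markers, 6 of them under 1 CPM in every library, summed to 135 to 144 CPM with H196 and 154 to 171 CPM with H69, nearly all of it keratins that MRC5 alone also held. The 6 endothelial markers summed to 41.6 to 42.5 CPM with H196 and 34.4 to 36.1 CPM with H69, nearly all of it TEK, the other 5 staying under 1 CPM. The part of these markers in the results was not tested. RNA of H196 was measurable in MRC5_CoH196: the 95 genes that reached 20 CPM in all libraries of H196 and stayed below 0.5 CPM in MRC5 grown alone summed to 53.6, 61.8 and 23.7 CPM there, against 10.4, 8.34 and 9.94 CPM in MRC5_CoH69 and at least 7747 CPM in H196 itself. This put the H196 share at an estimated 0.560%, 0.664% and 0.180% of the RNA of the 3 MRC5_CoH196 libraries. The estimate for replicate 3 rests in part on few genes: ARFGEF3 read 6.01, 7.41 and 6.47 CPM in the 3 libraries, while MAGEA4, at 825 CPM in H196, read 2.93, 3.63 and 0.209 CPM.

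Of 12819 genes tested with edgeR, 3618 (28.2%) differed between the co-cultures. A gene counts as called here where the adjusted p is below 0.05 and the log2 fold change exceeds 0.58 in either direction. Among them 1943 (15.2% of tested genes) were higher and 1675 (13.1%) lower in MRC5_CoH196, so 53.7% of the calls were higher. The counts of members called in each gene list are set against these shares. The levels of the 3 libraries of one co-culture did not overlap those of the other for 9377 genes (73.1%). The large differences lay on the higher side: 212 genes were called higher by over 2 on the log2 scale and 44 lower by over 2, and by over 4 the numbers were 38 and 5. Among called genes with a mean of at least 10 CPM, 64 were higher and 6 lower by at least 2. The log2 fold changes of all tested genes ran, from their lower to their upper quartile, from -0.35 to 0.36 around a median of -0.01. When libraries were scaled by their totals alone the median moved to -0.17, and 1369 genes were called higher and 2627 lower, so 34.3% of the calls were then higher. Subtracting the estimated H196 RNA from the MRC5_CoH196 libraries, an alternative chosen after seeing the data, gave 1936 higher and 1699 lower, and the estimate could supply at least 50% of the difference for 6 of the 1943 genes called higher.

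**Figure D1:**
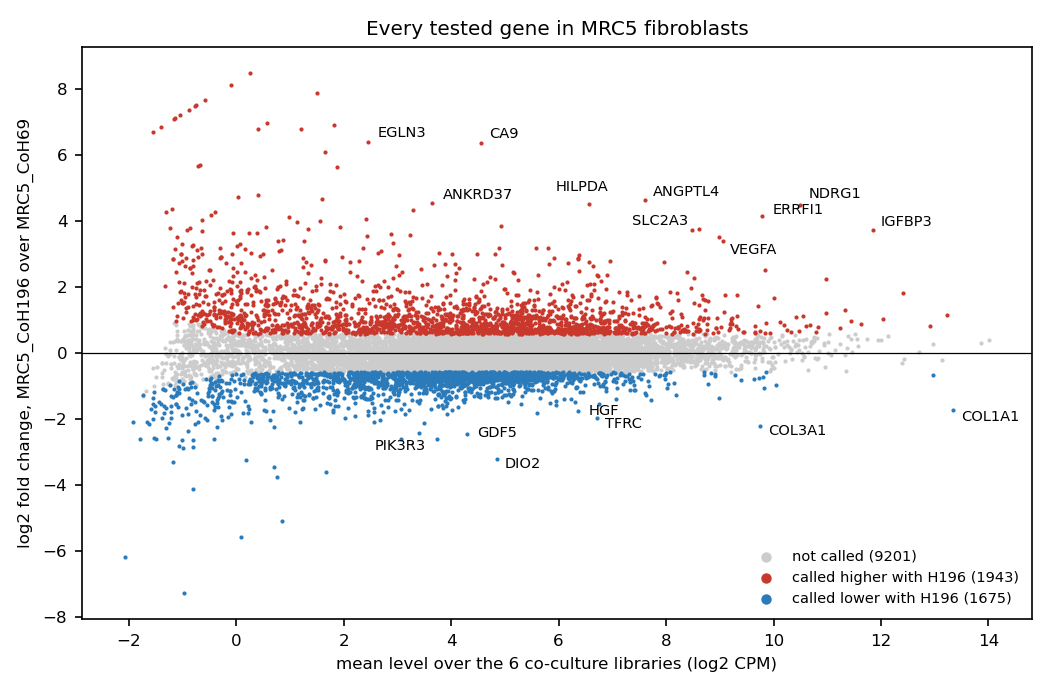
Each point is 1 of the 12819 tested genes, with its mean level over the 6 co-culture libraries (log2 CPM) on the horizontal axis and the log2 fold change of MRC5_CoH196 over MRC5_CoH69 on the vertical axis. Red points are the 1943 genes called higher and blue points the 1675 called lower, and the points beyond 4 on the vertical axis lie mostly above 0.

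Among called genes with a mean of at least 10 CPM and no overlap, the 10 largest differences upward were those of CA9, ANGPTL4, ANKRD37, HILPDA, NDRG1, ERRFI1, RORA, SLC2A3, ENO2 and IGFBP3, with log2 fold changes from 6.38 down to 3.71. CA9, a carbonic anhydrase of the cell surface that helps export acid, had 46.4, 41.0 and 51.6 CPM in the 3 MRC5_CoH196 libraries against 0.713, 0.314 and 0.615 CPM in MRC5_CoH69 and 0.153, 0.559 and 0.310 CPM in MRC5_Mo. It was thus near the counting floor without H196 and clearly present in every library with it (log2 fold change 6.38 ± 0.16 (SE), adjusted p = 3.28e-21). ANGPTL4, a secreted inhibitor of lipoprotein lipase, was read at 407, 329 and 388 CPM with H196 and at 16.2, 17.2 and 11.5 CPM with H69. HILPDA, which coats lipid droplets and blocks their breakdown, stood at 173, 169.6 and 201 CPM and 7.23, 7.59 and 8.71 CPM. The lowest library with H196 exceeded the highest with H69 by more than 10 times for each of these genes. NDRG1, a stress protein often used as a marker of hypoxia, reached 2883, 2457 and 2978 CPM with H196 against 120.0, 121 and 128 CPM with H69. ERRFI1, a feedback inhibitor of the EGF receptor, was measured at 1689, 1524 and 1792 CPM and 93.9, 91.2 and 95.6 CPM. Both were among the more abundant transcripts of MRC5_CoH196, and neither group came near the other. IGFBP3, a carrier of insulin-like growth factors in blood and matrix, went from 519, 495 and 548 CPM with H69 to 6646, 6595 and 7239 CPM with H196, with 293, 337 and 347 CPM in MRC5 alone. Its log2 fold change was 3.71 ± 0.06 (adjusted p = 2.37e-25), and its level with H69 was itself 0.68 above MRC5_Mo on the log2 scale.

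By the same limits the 10 largest differences downward were those of DIO2, PIK3R3, GDF5, RAB7B, COL3A1, SLIT2, TFRC, GBP2, PCDH7 and HGF, from -3.23 to -1.77. DIO2, the deiodinase that activates thyroid hormone, had 5.62, 5.41 and 5.64 CPM with H196 against 52.6, 52.0 and 51.6 CPM with H69 and 46.7, 42.4 and 37.0 CPM alone (log2 fold change -3.23 ± 0.09, adjusted p = 2.19e-20). PIK3R3, a regulatory subunit of PI3 kinase, had 3.69, 4.26 and 3.30 CPM with H196 and 22.4, 21.1 and 25.5 CPM with H69. GDF5, a BMP-family ligand, was at 5.62, 5.87 and 6.49 CPM and 32.9, 30.9 and 36.1 CPM. For all 3 genes the H196 libraries lay below those of both other groups, while DIO2 was somewhat higher with H69 than alone. SLIT2, a secreted guidance cue, averaged 4.21 ± 0.345 CPM with H196 and 18.5 ± 1.40 CPM with H69. PCDH7, a protocadherin, averaged 21.2 ± 0.495 CPM with H196 and 75.1 ± 3.67 CPM with H69. HGF, the ligand of MET, was 36.1, 41.3 and 34.5 CPM with H196 and 125, 122 and 134 CPM with H69, again without overlap (log2 fold change -1.77 ± 0.06). RAB7B, an endosomal GTPase, had a log2 fold change of -2.44.

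**Figure D2:**
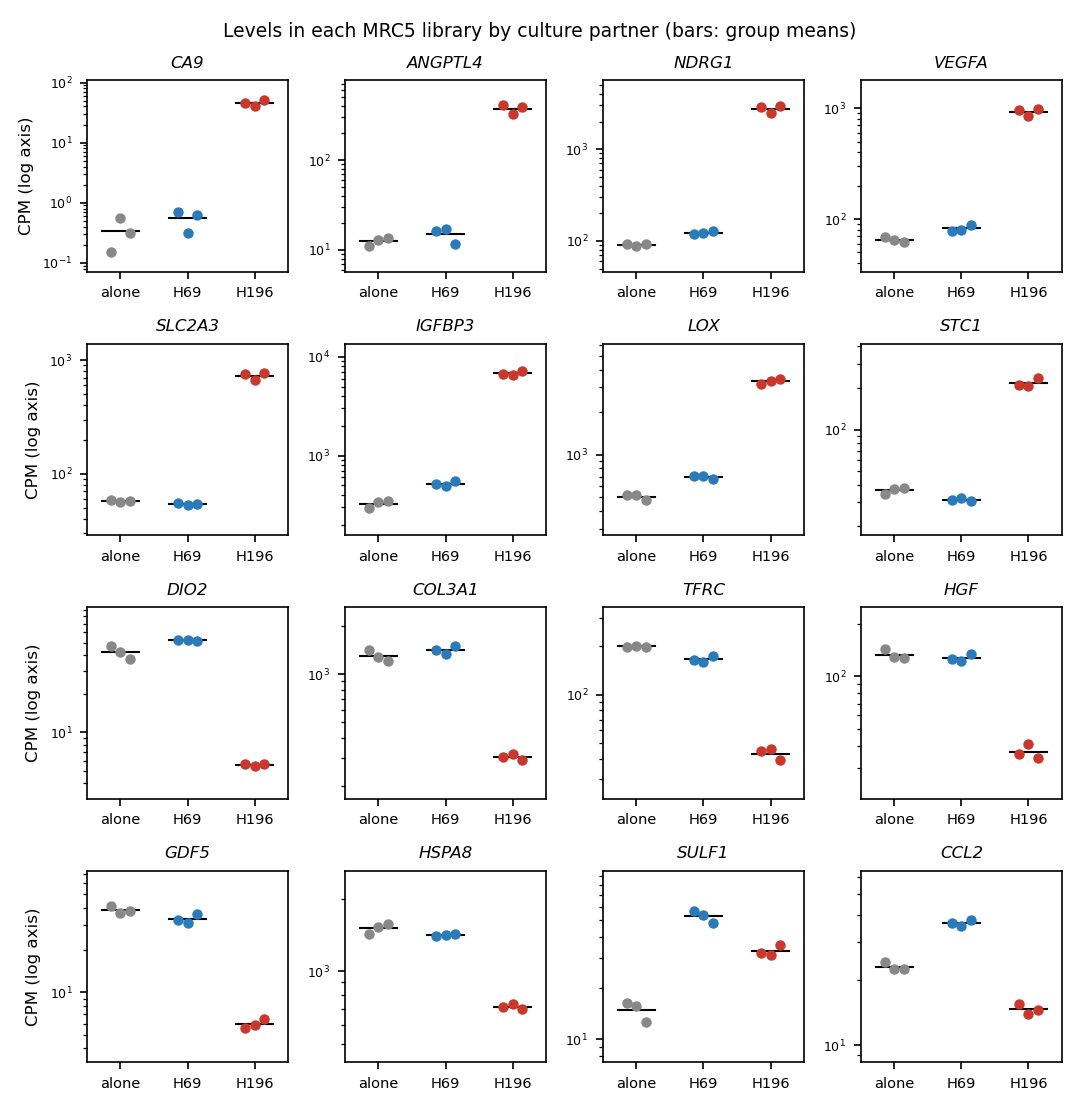
Levels of 16 genes (CPM, log axis) in each of the 9 MRC5 libraries, grown alone (grey), with H69 (blue) or with H196 (red), with a bar at each group mean. The first 8 genes were higher and the next 6 lower with H196 than with H69 without overlap, and SULF1 and CCL2 were lower with H196 than with H69 and higher with H69 than alone.

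The listed HIF targets were all higher with H196, on a list chosen with earlier results of these data known. All 26 listed HIF target genes were tested and 26 of 26 were called higher, against 15.2% of all tested genes, with log2 fold changes from 1.36 to 6.41 and a median of 2.82. Against MRC5_Mo the same 26 genes had a median of 2.80 with H196, and 0.19 with H69 (from -0.34 to 0.68), both being contrasts that share the MRC5_Mo libraries. VEGFA, the main signal for new blood vessels, was at 967, 850.2 and 979.5 CPM with H196 and 78.2, 80.3 and 88.5 CPM with H69 (log2 fold change 3.50 ± 0.06, adjusted p = 1.27e-24). Every H196 library held about the same amount, and the 3 H69 libraries lay slightly above the 69.5, 64.2 and 61.7 CPM of MRC5 alone. Genes of mitophagy were among the targets that differed: BNIP3 averaged 565 ± 34.7 CPM with H196 and 103 ± 3.55 CPM with H69, and BNIP3L averaged 562 ± 30.2 CPM with H196 and 144 ± 8.34 CPM with H69. PDK1, a kinase that inhibits pyruvate dehydrogenase and so keeps pyruvate out of the TCA cycle, had a log2 fold change of 1.90 ± 0.06. DDIT4, a brake on mTORC1, had 2.49 ± 0.06, and MXI1, a MYC antagonist, had 3.18 ± 0.07. The clock repressors BHLHE40 and BHLHE41 had 2.98 ± 0.07 and 2.99 ± 0.11, and RORA, a nuclear receptor of the same clock, had 3.86 ± 0.09. ADM, which encodes the vasodilator adrenomedullin, averaged 606 ± 55.3 CPM with H196 and 125 ± 5.62 CPM with H69. The smallest difference of the list was that of EGLN1, and it still lay above the fold limit by a wide margin.

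The main HIF subunits differed far less than the targets, while 2 of the oxygen sensors and the scarce HIF3A differed strongly. Of the 10 subunits and sensors, all tested, 3 were called higher and 1 lower. HIF1A had 387, 407 and 421 CPM with H196 and 324, 327 and 325 CPM with H69, groups that did not overlap but whose log2 fold change of 0.32 ± 0.04 was under the limit. EPAS1, which encodes HIF-2 alpha, averaged 387 ± 14.5 CPM with H196 and 410.4 ± 2.57 CPM with H69 (log2 fold change -0.08 ± 0.05). ARNT, their shared partner, had 0.56 ± 0.05, just under the limit, while ARNT2 was called lower at -0.59 ± 0.05, just beyond it, and lost that call when replicate 1 or replicate 2 of MRC5_CoH196 was left out (-0.57 and -0.56). Of the oxygen sensors, EGLN1 (1.36 ± 0.05) and EGLN3 were called higher, while EGLN2 (-0.22), HIF1AN (-0.20) and VHL (0.10) were not called. EGLN3 had 211, 171 and 184 counts in the H196 co-cultures against 4, 1 and 2 in the H69 co-cultures and 0, 1 and 8 in MRC5 alone, so it was all but unread without H196. HIF3A, the least studied alpha subunit, had 79, 67 and 85 counts against 10, 12 and 2. Per length, EPAS1 (73.5 ± 1.73 FPKM) and HIF1A (102 ± 4.61 FPKM) were the abundant alpha subunits in MRC5_CoH196, and HIF3A was at 0.747 ± 0.0850 FPKM.

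The promoters of HIF targets held the ACGTG core more often than promoters at large. Promoters are here the 300 bases from 250 before to 50 after the start, taken from RefSeq (GRCh38.p14) and searched for ACGTG on both strands, so a CACGTG counts as a match on each strand. Of 10522 tested genes with such a promoter 26.7% held the core, as did 27.6% of genes called higher, 26.7% of those called lower and 26.5% of those not called. Among genes called higher by over 2 the share was 36.4% (55 of 151), among glycolysis genes 38.1% (8 of 21) and among HIF targets 57.1% (12 of 21). The shares of all genes called higher and of those not called were thus nearly equal, and only the small, strongly different sets stood above them, which is a description and was not tested. These sets share members, CA9, ANGPTL4 and ANKRD37 among them, so their shares are not separate observations. The HIF targets were listed as genes that HIF switches on, so their share is no separate finding about these data. A match is no measured binding site, and sites further from the start were not searched. EGLN3 (log2 fold change 6.41) and RORA (3.86) were among the HIF targets without a match, and NDRG1, VEGFA and HILPDA had no promoter to search. Promoters of HIF targets with the core and log2 fold changes of 6.38, 4.65, 4.54 and 2.99 are shown to place the core, in capitals, relative to the start at base 251 of each.
CA9 promoter, chr9:35673678-35673977, plus strand: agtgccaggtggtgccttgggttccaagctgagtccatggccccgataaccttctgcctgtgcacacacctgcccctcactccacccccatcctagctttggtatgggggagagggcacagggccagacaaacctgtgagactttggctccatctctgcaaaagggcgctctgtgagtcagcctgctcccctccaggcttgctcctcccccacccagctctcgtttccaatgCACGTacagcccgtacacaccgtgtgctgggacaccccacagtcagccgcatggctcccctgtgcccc
ANGPTL4 promoter, chr19:8363905-8364204, plus strand: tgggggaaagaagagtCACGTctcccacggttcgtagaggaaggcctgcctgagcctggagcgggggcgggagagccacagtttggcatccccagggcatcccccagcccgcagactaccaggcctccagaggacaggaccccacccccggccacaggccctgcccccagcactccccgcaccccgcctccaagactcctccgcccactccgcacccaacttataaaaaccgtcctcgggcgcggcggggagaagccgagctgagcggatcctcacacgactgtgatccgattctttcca
ANKRD37 promoter, chr4:185396591-185396890, plus strand: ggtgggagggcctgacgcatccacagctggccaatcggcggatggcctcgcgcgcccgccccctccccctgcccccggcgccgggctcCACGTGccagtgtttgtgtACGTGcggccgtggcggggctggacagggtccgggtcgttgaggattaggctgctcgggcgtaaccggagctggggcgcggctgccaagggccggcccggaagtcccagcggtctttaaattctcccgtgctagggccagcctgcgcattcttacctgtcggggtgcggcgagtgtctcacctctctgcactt
BHLHE41 promoter, chr12:26124988-26125287, minus strand: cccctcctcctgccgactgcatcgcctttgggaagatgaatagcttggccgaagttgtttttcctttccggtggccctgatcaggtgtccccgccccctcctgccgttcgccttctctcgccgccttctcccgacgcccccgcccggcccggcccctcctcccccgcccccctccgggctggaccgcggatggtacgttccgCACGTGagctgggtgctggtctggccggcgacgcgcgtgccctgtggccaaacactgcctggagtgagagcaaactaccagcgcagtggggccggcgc
The single core of CA9 began at -18 and that of ANGPTL4 at -234 from the start, both on the opposite strand (CACGT as printed). ANKRD37, an ankyrin protein of unclear role, held 3 matches at -162, -161 and -143, the first pair being the strands of a CACGTG, and BHLHE41 held the strands of a CACGTG at -48 and -47.

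Genes of glucose use were higher at nearly every step down to lactate. Of 23 glycolysis genes, all tested, 18 (78.3%, against 15.2% of all tested genes) were called higher and 0 lower in edgeR, where 2 were lower at an unadjusted p below 0.05, with a median of 1.06. The glucose transporters came first: SLC2A1 averaged 1559 ± 115 CPM with H196 and 274 ± 20.8 CPM with H69 (log2 fold change 2.51 ± 0.06), and SLC2A3 had 758, 668 and 767 CPM against 54.6, 52.4 and 54.5 CPM (3.76 ± 0.05). Per length SLC2A3 stood at 191 ± 11.6 FPKM beside 465 ± 28.1 FPKM of SLC2A1 with H196 and 15.7 ± 0.450 FPKM beside 91.5 ± 6.50 FPKM with H69. Of the hexokinases that trap glucose in the cell, HK2 had 2.37 ± 0.05 and HK1 0.79 ± 0.04, with HK1 at 362, 326 and 352 CPM against 197, 206 and 197 CPM. HK1 nevertheless remained the more abundant per length, at 96.6 ± 3.90 FPKM against 34.5 ± 1.62 FPKM of HK2 in MRC5_CoH196.

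At the phosphofructokinase step PFKP was called higher (1.06 ± 0.05) while PFKL (0.52 ± 0.04) and PFKM (0.14 ± 0.05) were not called, and the enzymes that make its activator, PFKFB3 and PFKFB4, had 1.73 ± 0.04 and 2.89 ± 0.07. Of the enzymes from aldolase to pyruvate kinase all on the list but PKM (0.20 ± 0.04) were called higher: ALDOA 1.3, ALDOC 1.6, TPI1 0.85, GAPDH 1.14, PGK1 1.68, PGAM1 0.62 and ENO1 0.96. ENO2, the enolase better known from neurons and NE tumours, was at 653, 634 and 714 CPM in the fibroblasts with non-NE H196 and at 50.8, 50.9 and 49.0 CPM with NE H69. Its level with H69 was close to the 46.7, 46.6 and 45.6 CPM of MRC5 alone, and the groups with and without H196 were far apart (3.73 ± 0.05). LDHA, which turns pyruvate into lactate, had 2792, 2732 and 2904 CPM against 1219, 1179.7 and 1209 CPM (1.22 ± 0.04), while LDHB, which favours the reverse, was not called (-0.20 ± 0.04). SLC16A3, the lactate exporter MCT4, had 772, 777 and 769 CPM against 423, 438 and 412 CPM (0.87 ± 0.04, adjusted p = 1.27e-15). SLC16A1, the transporter MCT1, averaged 56.4 ± 3.51 CPM with H196 and 62.7 ± 2.33 CPM with H69 and was not called (-0.15 ± 0.05). Per length the exporter stood at 321 ± 6.84 FPKM against 15.0 ± 1.15 FPKM of SLC16A1 with H196, and at 198 ± 3.56 FPKM against 18.7 ± 0.813 FPKM with H69.

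**Figure D3:**
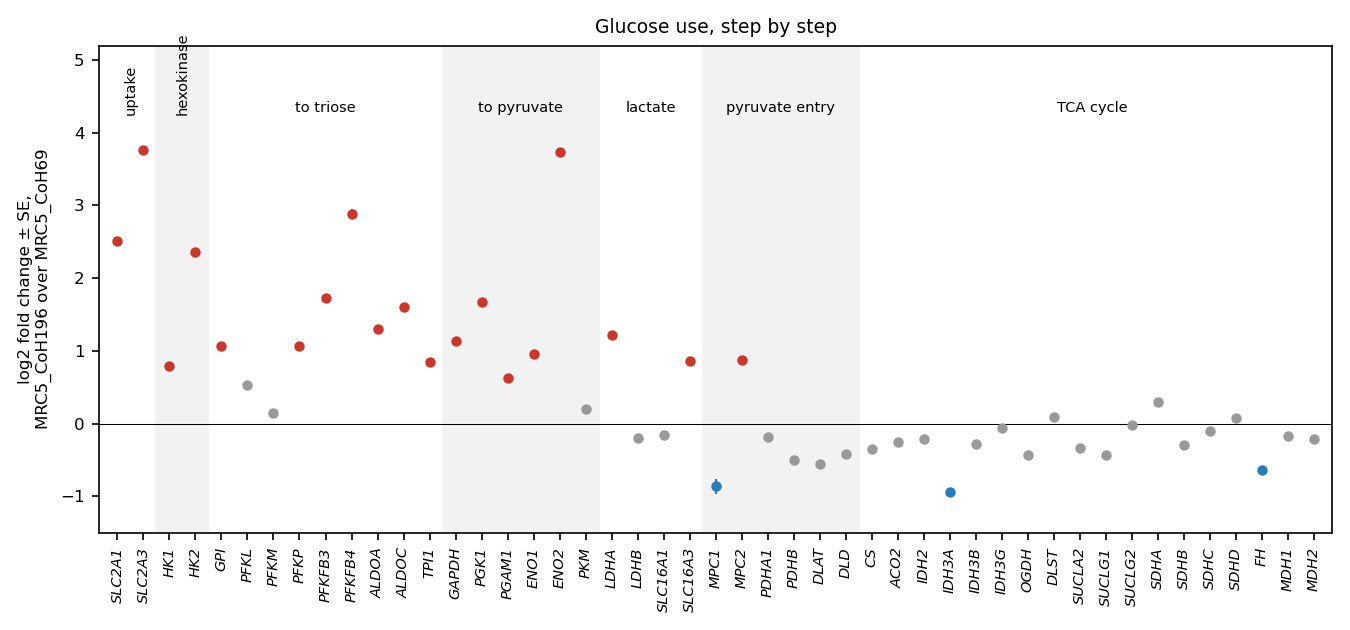
Log2 fold change of MRC5_CoH196 over MRC5_CoH69 with its SE (mostly smaller than the point) for genes of glucose uptake, glycolysis, lactate handling, pyruvate entry and the TCA cycle, in the order of the pathway. Red points were called higher, blue points lower and grey points neither. The points are mostly red down to lactate and mostly grey after it, with 1 red (MPC2) and 3 blue there.

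Past pyruvate the share called lower was near that of all genes. Of 24 genes of pyruvate entry and the TCA cycle, all tested, 1 (4.17%) was called higher and 3 (12.5%) lower, against 15.2% and 13.1% of all tested genes, with 20 below 0 and a median of -0.27 (-0.43 with library totals alone, when 7 were called lower). The subunits of the mitochondrial pyruvate carrier moved apart: MPC1 averaged 5.60 ± 0.436 CPM with H196 and 10.2 ± 0.520 CPM with H69 (-0.86 ± 0.10), and MPC2 averaged 49.3 ± 2.67 CPM with H196 and 27.0 ± 0.508 CPM with H69 (0.87 ± 0.06). IDH3A, the catalytic subunit of the NAD-linked isocitrate dehydrogenase, had 19.3, 19.1 and 18.3 CPM with H196 against 36.7, 34.8 and 37.5 CPM with H69 and 35.0, 38.1 and 37.4 CPM alone (log2 fold change -0.94 ± 0.06, adjusted p = 1.04e-12). Its partner subunits IDH3B (-0.28) and IDH3G (-0.06) were not called, and FH, the fumarase, was called lower (-0.64 ± 0.05). CAV1, the caveolin often followed in CAFs together with IDH3A, had 662, 672 and 658 CPM against 802, 801 and 775 CPM, without overlap but under the fold limit (-0.26 ± 0.04). Of 72 respiratory chain and ATP synthase genes 0 were called higher in edgeR (8 at an unadjusted p below 0.05) and 5 (6.94%) lower, with a median of -0.22, and ATP5MC1, a subunit of the proton channel of ATP synthase, was the lowest at -1.19 ± 0.06. The count of 5 was 2 with DESeq2 size factors, 15 with library totals alone, and 3 without replicate 2 of MRC5_CoH69 or replicate 3 of MRC5_CoH196.

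Secreted signals differed gene by gene rather than together. Of 46 growth factor ligands 34 passed the filter on low counts, and 14 (41.2%) were called higher and 8 (23.5%) lower. The shares of all tested genes were 15.2% and 13.1%. The median of these ligands, 0.09, became -0.07 with library totals alone. On the higher side stood the vessel factors: VEGFA, PGF (2.28 ± 0.20), VEGFC (1.02 ± 0.05) and VEGFB (0.94 ± 0.05). INHBB, a subunit of activin B, had 65, 79 and 74 counts with H196 and 5, 3 and 7 with H69. FGF5, a ligand of FGFR1, had 358, 385 and 383 CPM with H196 against 221, 225 and 211 CPM with H69 and 243, 277 and 269 CPM alone (0.78 ± 0.05, adjusted p = 3.20e-13). Its level with H69 was thus below that of MRC5 alone and its level with H196 above both. FGF17 had 10, 18 and 14 counts with H196, 4, 5 and 4 with H69 and 3, 2 and 5 alone, too few to be tested. On the lower side, besides GDF5 and HGF, PDGFD averaged 1.66 ± 0.215 CPM with H196 and 6.52 ± 1.13 CPM with H69 (-1.97 ± 0.17), HBEGF had -1.09 ± 0.11 and BMP4 -0.97 ± 0.13. The stress-linked GDF15 was called higher (1.70 ± 0.07).

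The IGF axis leaned higher. Of 15 tested of 17 listed genes 8 (53.3%) were called higher and 0 lower in edgeR, with a median of 0.62. The shares of all tested genes were 15.2% and 13.1%. At an unadjusted p below 0.05, 2 were lower, and library totals alone gave 7 higher and 1 lower and limma on log2(FPKM + 0.1) 6 and 1. Next to IGFBP3, STC1, a stanniocalcin that restrains the protease PAPPA, had 211, 206 and 236 CPM against 31.0, 32.0 and 30.6 CPM (2.80 ± 0.06), and STC2 averaged 1216 ± 29.1 CPM with H196 and 451 ± 18.6 CPM with H69. The adaptor IRS2 had 2.1 ± 0.07, the receptor IGF1R 1.0 ± 0.05 and the ligand IGF2 1.0 ± 0.05, and the adaptor IRS1 was not called (-0.02 ± 0.04). IGFBP5, the other abundant binding protein, averaged 4815 ± 191 CPM with H196 and 5945 ± 199 CPM with H69 and was not called (-0.30 ± 0.05).

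**Figure D4:**
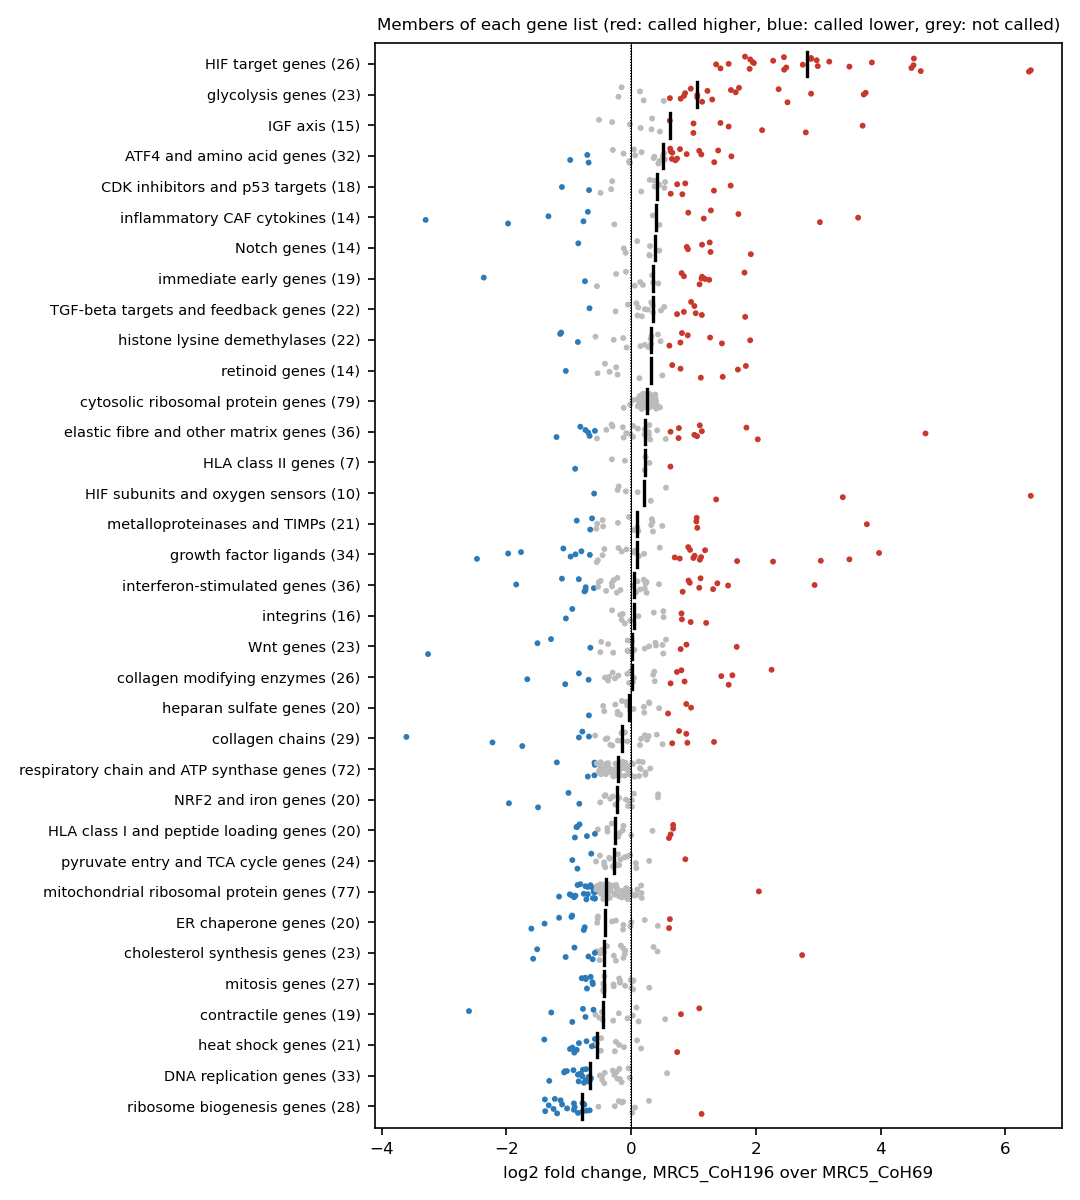
Log2 fold change of MRC5_CoH196 over MRC5_CoH69 for each tested member of 35 gene lists (number tested in brackets), with a bar at each list's median and a dotted line at the median of all tested genes, -0.01. Red points were called higher and blue lower, and the lists run from HIF targets at a median of 2.82 to ribosome biogenesis at -0.78.

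Collagen chains differed in both directions. Of 29 tested (39 listed) 5 (17.2%) were called higher and 6 (20.7%) lower, against 15.2% and 13.1% of all tested genes, with a median of -0.15. COL1A1, the main chain of type I collagen and among the most abundant transcripts, averaged 4773 ± 212 CPM with H196 and 16012 ± 644 CPM with H69 (-1.75 ± 0.04), and COL1A2 averaged 6159 ± 109 CPM with H196 and 9848 ± 174 CPM with H69 (-0.68 ± 0.04). COL3A1, of type III collagen, had 305, 316 and 289 CPM with H196 against 1409, 1343 and 1503 CPM with H69 and 1411, 1269 and 1209 CPM alone (-2.22 ± 0.05, adjusted p = 2.33e-21). COL14A1, which binds fibrils, averaged 0.476 ± 0.200 CPM with H196 and 5.86 ± 1.18 CPM with H69, and COL5A2 had -0.78 ± 0.04. The chains of type VI collagen went the other way, COL6A1 at 0.66 ± 0.04 and COL6A2 at 0.88 ± 0.05, with COL6A3 not called (0.25). COL8A2 and COL15A1, of the network and basement membrane zone collagens, had 1.33 ± 0.10 and 0.90 ± 0.07.

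Of 26 tested collagen modifying enzymes (27 listed) 8 (30.8%) were called higher and 4 (15.4%) lower. The shares of all tested genes were 15.2% and 13.1%. The median of these enzymes, 0.01, was -0.15 with library totals alone. LOX, which cross-links collagen and elastin, had 3194, 3323 and 3472 CPM against 714, 707 and 675 CPM (2.25 ± 0.05, adjusted p = 4.80e-23), and LOXL2 had 0.86 ± 0.04. The prolyl hydroxylases P4HA1 and P4HA2 had 1.56 ± 0.05 and 1.62 ± 0.04, and the lysyl hydroxylase PLOD2 1.45 ± 0.05. SERPINH1, the collagen chaperone HSP47, was on the contrary lower, at 608, 589.5 and 576 CPM against 1256, 1273 and 1163 CPM (-1.06 ± 0.05). The procollagen protease ADAMTS14 had -1.67 ± 0.15.

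Of 36 tested elastic fibre and other matrix genes (37 listed) 10 (27.8%) were called higher and 6 (16.7%) lower (median 0.22, 0.06 with library totals alone). Of all tested genes 15.2% were called higher and 13.1% lower. The CCN genes, which encode matricellular signals, were split: CCN1 (1.10 ± 0.05), CCN2 (1.13 ± 0.04) and CCN4 (1.85 ± 0.07) were called higher and CCN3 lower (-1.20 ± 0.30), and CCN5 had 41, 35 and 28 counts against 1, 1 and 2. CCN3 was scarce, at 7, 16 and 11 counts with H196 and 30, 21 and 36 with H69. It lost its call in 1 of 18 alternative runs. CCN2 was read at 2085, 2037 and 2069.7 CPM with H196 and at 977, 932 and 911 CPM with H69, all 3 H196 libraries lying close together. Tenascin TNC averaged 485 ± 8.50 CPM with H196 and 854 ± 22.5 CPM with H69 (-0.81 ± 0.05). Elastin ELN averaged 89.0 ± 8.78 CPM with H196 and 148 ± 21.8 CPM with H69 (-0.73 ± 0.10) with 74.0 ± 14.8 CPM alone, so that its level with H69 was above MRC5 alone while that with H196 was nearer to it. Of 21 tested metalloproteinases and TIMPs (28 listed) 4 were called higher and 3 lower, with a median of 0.10 (-0.06 with library totals alone, when 7 were called lower). The abundant MMP2 (0.34), MMP14 (0.04) and TIMP1 (0.33) were not called, and MMP3, which was called (1.06 ± 0.19), averaged only 4.06 ± 0.179 CPM with H196 and 1.94 ± 0.403 CPM with H69. MMP12 had 18, 21 and 15 counts against 0, 2 and 2.

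TGF-beta targets and contractile genes, both used to recognise myofibroblasts, leaned in different directions. Of 22 TGF-beta targets and feedback genes 7 (31.8%) were called higher and 1 (4.55%) lower, with a median of 0.34. Of all tested genes 15.2% were called higher and 13.1% lower. TGFBI, a matrix protein named for its induction by TGF-beta, averaged 5609 ± 173 CPM with H196 and 2777 ± 87.8 CPM with H69 (1.01 ± 0.04, adjusted p = 8.33e-17), and the inhibitor SMAD7 and the ligand TGFB1 had 1.04 ± 0.06 and 0.85 ± 0.05. TGFB3, the only member called lower (-0.67 ± 0.26), was at about 1 CPM, and its call was lost with the DESeq2 Wald test (adjusted p = 0.102) and without replicate 1 of MRC5_CoH69 or replicate 2 or 3 of MRC5_CoH196. Of 19 contractile genes 2 (10.5%) were called higher and 6 (31.6%) lower, with a median of -0.45 (10 lower with library totals alone). ACTA2, the alpha smooth muscle actin by which CAFs are commonly stained, averaged 299.9 ± 17.9 CPM with H196 and 577 ± 61.0 CPM with H69 and 411 ± 12.2 CPM alone (log2 fold change -0.94 ± 0.06, adjusted p = 2.30e-13). The highest levels were thus those with H69 and the lowest those with H196, with MRC5 alone between them. ACTG2 had -1.28 ± 0.06, CNN1 -0.77 ± 0.06 and MYLK -0.73 ± 0.04, whereas TAGLN (-0.06 ± 0.05) was not called and TNS1, a tensin of focal adhesions, was called higher (1.09 ± 0.05).

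Inflammatory signals were divided. Of 30 inflammatory CAF cytokines and related genes 14 passed the filter, 6 (42.9%) called higher and 5 (35.7%) lower. The shares of all tested genes were 15.2% and 13.1%. PTGS2, which makes prostaglandins, had 23.6, 25.8 and 23.4 CPM with H196 and 3.92, 2.98 and 2.0 CPM with H69 (3.03 ± 0.16, adjusted p = 1.26e-14). The neutrophil attractant CXCL8 had 7.95, 6.90 and 7.58 CPM and 2.49, 1.83 and 2.46 CPM (1.72 ± 0.15), and CXCL12 averaged 83.1 ± 1.88 CPM with H196 and 34.2 ± 0.290 CPM with H69 (1.28 ± 0.07). The monocyte attractant CCL2 took the opposite side, with 15.6, 14 and 14.5 CPM against 37.0, 35.7 and 38.1 CPM (-1.33 ± 0.07). With 24.3, 22.6 and 22.5 CPM in MRC5 alone, CCL2 was higher with H69 and lower with H196 than without a partner. LIF was lower too (-0.76 ± 0.06), and IL6 was not called (0.46 ± 0.13), at 6.75 and 4.92 CPM. CCL5, a T cell attractant, had 7, 2 and 2 counts with H196 and 1, 5 and 4 with H69, too few to be tested.

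Interferon-stimulated genes were unequal between genes and also between libraries. Of 36 tested (42 listed) 9 were called higher and 7 lower, with a median of 0.05 (-0.10 with library totals alone). The lower side held guanylate-binding proteins and their inducer: GBP2 had 6.19, 6.79 and 6.89 CPM with H196 against 23.4, 23.8 and 24.2 CPM with H69 (-1.84 ± 0.08), GBP1 averaged 35.3 ± 0.613 CPM with H196 and 76.3 ± 1.17 CPM with H69 (-1.11 ± 0.05) and IRF1 had -0.73 ± 0.07. The 3 H196 libraries were alike for these genes. The higher side held genes of the type I interferon response: IFI6 had 22.6, 42.5 and 19.1 CPM against 11.4, 10.8 and 11.6 CPM (1.31 ± 0.18, adjusted p = 6.13e-07), and OASL had 2.16, 4.09 and 1.03 CPM against 0.305, 0.262 and 0.359 CPM (2.94 ± 0.42). IFIT1 had 10.9, 18.9 and 5.41 CPM against 5.09, 5.39 and 6.0 CPM, and MX1 had 8.24, 15.6 and 5.47 CPM against 4.89, 5.13 and 5.23 CPM. Replicate 2 with H196 was the highest and replicate 3 the lowest for these 4 genes, and for IFIT1 replicate 3 lay within the range with H69. The same order of libraries held for the H196 marker sum of 53.6, 61.8 and 23.7 CPM. The H196 RNA estimate could supply 0.110 CPM of the 14.4 CPM by which IFI6 differed at library totals. With that estimate subtracted the calls higher numbered 9. The cause of the spread between these libraries was not tested. Without replicate 2 of MRC5_CoH196 only 5 members were called higher and the median was -0.06, and IFI6 and OASL, still called, had log2 fold changes of 0.89 and 2.35.

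**Figure D5:**
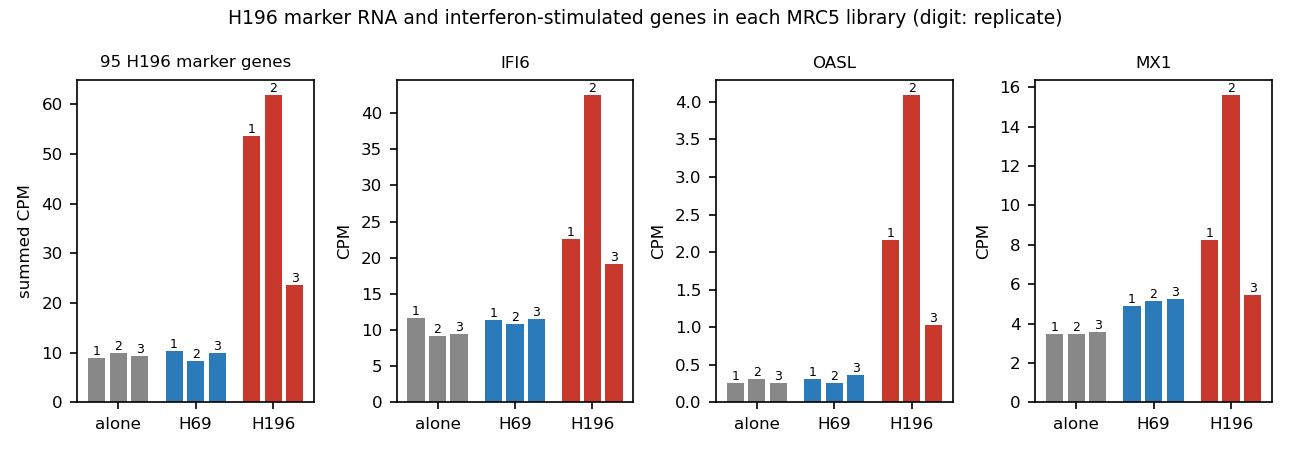
Summed CPM of the 95 H196 marker genes (relative to library totals) and CPM (TMM-scaled) of IFI6, OASL and MX1 in each MRC5 library, grown alone (grey), with H69 (blue) or with H196 (red), with the replicate number above each bar. With H196 replicate 2 is the highest and replicate 3 the lowest in all 4 panels, and the 3 libraries with H69 stay level.

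HLA class I heavy chains were called higher, though not with library totals alone, while the loading genes that were called were all lower. HLA-B had 1088, 1023 and 1048 CPM with H196 against 673, 679 and 627 CPM with H69 (0.67 ± 0.05), and HLA-C 869, 814 and 847 CPM against 555, 556 and 519.7 CPM (0.63 ± 0.04). With HLA-E (0.67 ± 0.04) they were among the 4 of 20 tested class I and peptide loading genes (22 listed) called higher, and their groups did not overlap. These log2 fold changes lay little above the limit, and with library totals alone HLA-B, HLA-C and HLA-E (0.48 to 0.52) fell below it and 0 of the 20 genes were called higher. Reads of HLA genes are shared between near-identical genes, so the split among them is uncertain. Of the loading genes 6 were called lower (5 with DESeq2 size factors), 30.0% of the 20 genes against 13.1% of all tested genes. Among them were the peptide pump TAP2 at 35.7, 33.1 and 31.4 CPM against 64.1, 57.7 and 62.1 CPM (-0.88 ± 0.06), the regulator NLRC5 (-0.86 ± 0.08) and the immunoproteasome subunit PSMB10 (-0.83 ± 0.08). B2M, the light chain, was not called (0.34 ± 0.04). Class II genes were scarce in both groups: of 15 listed 7 were tested, with HLA-DMA called higher at 7.92 ± 0.479 CPM with H196 and 5.11 ± 0.575 CPM with H69, a call lost without replicate 2 of MRC5_CoH69 (0.54) and with library totals alone (0.47). CTSS, a cathepsin that trims the class II chaperone, was called lower at 1.31 ± 0.394 CPM with H196 and 2.45 ± 0.414 CPM with H69 (-0.90 ± 0.25). HLA-DRA had 1, 0 and 0 counts with H196 and 0, 0 and 0 with H69, so that it was not detectable at this depth beyond single counts. HLA-DRB1 had 5, 5 and 10 counts with H196, 0, 0 and 1 with H69 and 1, 0 and 0 alone, too few to be tested. CD74 averaged 1.79 ± 0.403 CPM with H196 and 1.46 ± 0.517 CPM with H69.

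Many genes of growth and division were lower with H196. Of 28 ribosome biogenesis genes, all tested, 19 were called lower, against 13.1% of all tested genes, and 1 higher, with a median of -0.78. NOP16 and RRP9, nucleolar factors of rRNA processing, had -1.38 ± 0.09 and -1.38 ± 0.09, and POLR1A and POLR1B, subunits of RNA polymerase I, -1.03 ± 0.05 and -1.22 ± 0.10. The member called higher was MYC, itself a driver of this group, at 86.6 ± 6.27 CPM with H196 and 39.6 ± 3.67 CPM with H69 (1.13 ± 0.06, adjusted p = 4.30e-14). MYC thus lay on the opposite side of the comparison from the other 19 called members. Of 79 cytosolic ribosomal protein genes 0 were called in either direction with edgeR, DESeq2 or limma, 76 were higher at an unadjusted p below 0.05, 77 lay above 0 and the median was 0.25 (0.09 with library totals alone). Of 77 tested genes of the mitochondrial ribosome (78 listed) 23 were called lower (37 with library totals alone) and 1 higher, with a median of -0.40, MRPL15 being the lowest at -1.16 ± 0.06. The exception was MRPS6, at 149, 142 and 158 CPM against 36.2, 35.5 and 36.6 CPM (2.05 ± 0.06).

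Of 33 DNA replication genes, all tested, 18 (54.5%) were called lower and 0 higher in edgeR (1 at an unadjusted p below 0.05), with a median of -0.66. Of all tested genes 13.1% were called lower and 15.2% higher. MCM10 averaged 5.71 ± 0.738 CPM with H196 and 12.0 ± 0.729 CPM with H69 (-1.07 ± 0.10), MCM5 had -0.93 ± 0.07 and RRM2, a subunit of ribonucleotide reductase, -0.77 ± 0.06. CDT1, which licenses origins, lay at the limit on the higher side (0.58 ± 0.09) and was called with DESeq2. RRM2 averaged 76.9 ± 2.80 CPM with H196 and 131 ± 4.37 CPM with H69 and 160.1 ± 16.7 CPM alone. Of 27 mitosis genes 7 (25.9%) were called lower (15 with library totals alone) and 0 higher in edgeR (1 at an unadjusted p below 0.05, median -0.43), CCNB1 and KIF20A the most, with -0.79 ± 0.05 and -0.74 ± 0.06. Others such as TOP2A (0.01) and CDK1 (0.29) were not called. Of 18 CDK inhibitors and p53 targets 6 (33.3%) were called higher and 2 (11.1%) lower. CDKN1A, the inhibitor p21, averaged 1979 ± 96.8 CPM with H196 and 1119.7 ± 31.2 CPM with H69 (0.82 ± 0.04), CDKN1C had 1.33 ± 0.13 and GADD45B 1.6 ± 0.07, while CDKN2B had -1.11 ± 0.14.

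Stress genes were divided by group. Of 32 ATF4 and amino acid genes, all tested, 13 (40.6%) were called higher and 3 (9.38%) lower, with a median of 0.51 (7 higher with library totals alone). The shares of all tested genes were 15.2% and 13.1%. CHAC1, which breaks down glutathione, had 269, 221 and 248 CPM against 81.2, 86.2 and 74.7 CPM (1.61 ± 0.06), ASNS, the asparagine synthetase, 221, 211 and 198 CPM against 80.5, 78.8 and 80.4 CPM (1.40 ± 0.07), and ATF4 itself 0.89 ± 0.05. Of 20 ER chaperone genes 7 were called lower and 2 higher (median -0.42): HYOU1 had 77.7, 70.5 and 74.7 CPM against 198, 195 and 189.8 CPM (-1.39 ± 0.05), SDF2L1 -1.6 ± 0.10 and HSPA5, the chaperone BiP, -0.76 ± 0.04. The members called higher, HERPUD1 (0.62 ± 0.05) and the sensor ERN1 (0.61 ± 0.08), lay close to the limit, lost the call with library totals alone, and ERN1 lost it without replicate 3 of MRC5_CoH69 or replicate 1 of MRC5_CoH196. Of 21 heat shock genes 10 (47.6%) were called lower and 1 (4.76%) higher (median -0.55). HSPA8, the constitutive cytosolic chaperone, had 713, 731 and 700.4 CPM against 1397, 1415 and 1422 CPM (-0.98 ± 0.04), and HSPH1 had -1.39 ± 0.05. The small heat shock protein CRYAB was the one called higher (0.74 ± 0.06), a call lost with library totals alone and with limma.

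Some iron and lipid genes also differed. TFRC, the transferrin receptor that brings iron into the cell, had 44.3, 45.6 and 39.0 CPM with H196 against 165, 160.3 and 176 CPM with H69 and 199.6, 202 and 199.8 CPM alone (-1.96 ± 0.05, adjusted p = 2.57e-20), with no library of one group near the other. HMOX1, the heme oxygenase, averaged 9.84 ± 1.81 CPM with H196 and 27.7 ± 1.25 CPM with H69 (-1.49 ± 0.09). Both belong to the 20 NRF2 and iron genes, of which 4 were called lower and 0 higher in edgeR (2 at an unadjusted p below 0.05), while the ferritin chains FTH1 (0.01) and FTL (0.43) and the NRF2 target NQO1 (-0.19) were not called. Of 23 tested cholesterol synthesis genes (24 listed) 7 (30.4%) were called lower (12 with library totals alone) and 1 (4.35%) higher (median -0.43). INSIG1, which holds the activator of this pathway in the ER, was the member called higher, at 155, 172 and 169.8 CPM against 23.4, 23.2 and 27.5 CPM (2.74 ± 0.06), and INSIG2, one of the HIF targets, had 2.45 ± 0.07.

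Smaller signalling families held calls in both directions, as did all tested genes, of which 15.2% were called higher and 13.1% lower. Of 14 tested Notch genes (18 listed) 6 (42.9%) were called higher and 1 (7.14%) lower. NOTCH3, the receptor typical of mural cells and fibroblasts, had 415, 373 and 379 CPM against 166, 173 and 143 CPM (1.27 ± 0.06), and JAG2, a ligand, averaged 3.33 ± 0.699 CPM with H196 and 0.875 ± 0.129 CPM with H69 (1.92 ± 0.23), of whose difference the estimated H196 RNA could supply 11.7%. The fringe LFNG was lower (-0.85 ± 0.19). Of 23 tested Wnt genes (28 listed) 3 were called higher, or 5 without replicate 1 of MRC5_CoH196, and 4 lower (median 0.01, -0.14 with library totals alone): WNT16 had 1.69 ± 0.10, DKK3 0.79 ± 0.04, WNT2 -3.26 ± 0.39 and the receptor ROR1 -1.29 ± 0.14. Of 16 tested integrins (19 listed) 4 were called higher and 2 lower (median 0.05, -0.11 with library totals alone). ITGA6, a laminin receptor chain, had 195, 211 and 195 CPM with H196, 104, 109 and 96.7 CPM with H69 and 134, 160.1 and 160.3 CPM alone (0.95 ± 0.06), so the H69 group was the low one, and ITGB4, its partner, averaged 1.31 ± 0.392 CPM with H196 and 0.567 ± 0.110 CPM with H69 (1.20 ± 0.31).

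Of 20 tested heparan sulfate genes (25 listed) 3 (15.0%) were called higher and 1 lower, against 15.2% and 13.1% of all tested genes, and with library totals alone 2 were higher and 3 lower. The one lower was SULF1, an enzyme that trims sulfate from these chains outside the cell, with 32.0, 31.4 and 35.5 CPM with H196, 56.3, 53.7 and 48.3 CPM with H69 and 16.4, 15.6 and 12.6 CPM alone (-0.68 ± 0.07). Both co-cultures thus lay above MRC5 alone, and the H69 libraries above the H196 libraries. RARRES1, a gene that responds to retinoic acid, had the same order at low level, 1.71 ± 0.218 CPM with H196 and 3.54 ± 0.940 CPM with H69 and 1.04 ± 0.276 CPM alone (-1.05 ± 0.21). Of the 14 tested retinoid genes (22 listed) 6 (42.9%) were called higher, among them CRABP2, a carrier of retinoic acid (1.71 ± 0.09), and ALDH1A3, an enzyme that makes it (1.84 ± 0.11). DHRS3, which turns retinal back into retinol, averaged 22.9 ± 2.13 CPM with H196 and 20.9 ± 0.460 CPM with H69 and 5.19 ± 1.25 CPM alone, so that it did not separate the partners (0.13 ± 0.09) although both co-cultures lay above MRC5 alone.

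Of 22 histone lysine demethylases 7 (31.8%) were called higher and 3 (13.6%) lower, against 15.2% and 13.1% of all tested genes. These enzymes use oxygen, and KDM3A, a listed HIF target, had 110.0, 107 and 112 CPM against 28.3, 29.5 and 29.7 CPM (1.91 ± 0.05), KDM7A 1.46 ± 0.10 and KDM6B 1.27 ± 0.07. RIOX2 (-1.12 ± 0.07) and KDM8 (-1.14 ± 0.18), which also hydroxylate other proteins, were lower. Of 19 immediate early genes 8 (42.1%) were called higher and 2 (10.5%) lower, with DUSP1, a phosphatase that shuts off MAP kinases, at 484, 390.4 and 509 CPM against 137, 129.8 and 125 CPM (1.82 ± 0.07), JUN at 1.19 ± 0.05, and EGR1 lower at -0.74 ± 0.05. Without any single library of the 9, the number of genes called between the co-cultures stayed between 3505 and 3681. Among the 66 genes called higher that the naming rule gave, JAG2 and ITGB4 (5.04%) were the only ones for which the estimated H196 RNA could supply more than 3% of the difference.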

How the data were processed

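RNA from MRC5 was read on a BGIseq-500 after oligo(dT) selection. Per the labels and the study's methods, the authors filtered reads, aligned them with HISAT and Bowtie2 against GRCh38.p13 and deposited expected counts from RSEM per gene; the submitters' processing notes give HISAT2 2.1.0, Bowtie2 2.3.4.3 and RSEM 1.3.1. The authors also deposited FPKM, which relates those counts to transcript length and library size, used here only to compare levels between genes and in alternatives. Their fold change, p-value and q-value columns were not used, nor were 18 per-library columns of TPM and normalized counts in each of the MRC5 and H196 tables.

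Expected counts, of which 93.7% were whole within 1e-06, were rounded and fitted with the quasi-likelihood test of edgeR 4.0.16 (R 4.3.3), with TMM factors and filterByExpr, over the 9 MRC5 libraries. The contrast was MRC5_CoH196 minus MRC5_CoH69, two-sided, with Benjamini-Hochberg adjustment over 12819 of 16382 genes. SE is the log2 fold change over the root of F, and errors of levels are SDs over 3 libraries. Alternatives used DESeq2 1.42.0, limma 3.58.1 on log2(FPKM + 1) or log2(FPKM + 0.1), other scalings, filters and limits, a replicate block, and each library left out. H196 RNA was estimated from marker sums over H196 co-culture libraries. Scripts were tested on simulated data.

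Named genes were the 10 largest differences each way at 10 CPM or more without overlap, the 2 largest called each way per list at 1 CPM or more, genes the study names, and defining list members; some genes that this rule gave are not reported here. Members and lists were chosen with earlier results of these data known. Genes of H69 itself were not analysed here. Intervals and floors cover counting error only.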

Additional observations from a re-analysis of the deposited data

How the results depend on the processing

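No gene that kept its call in an alternative run changed direction there. Genes that lost their call were not compared in direction, except those given by the naming rule. Of these, no called gene changed direction. The estimated precision is limited by 3 libraries a group of 1 line. Without a fold limit 9269 genes were called (4574 higher, 4695 lower), and with a limit of 1 on the log2 scale 1353 (875 higher, 478 lower), by construction. Library totals alone gave 1369 higher and 2627 lower. With limma, 821 genes were higher and 1746 lower on log2(FPKM + 1), and 1281 higher and 2567 lower on log2(FPKM + 0.1), values that carry no TMM scaling. DESeq2's Wald test gave 1925 higher and 1562 lower, no filter on low counts 2238 and 1742, at least 10 counts in every library 1692 and 1487, an adjusted p limit of 0.01 1872 and 1594, and the 6 co-culture libraries alone 1933 and 1642. Leaving out each of the 9 libraries gave 3505 to 3681 called genes, 1940 to 2016 higher and 1565 to 1680 lower, and kept 3347 to 3592 of the 3618. The replicate block gave 3612 called genes (1938 higher, 1674 lower), changed no call of a named gene, and its numbers did not pair the libraries, since same-numbered libraries had deviations correlated at 0.00157, -0.116 and -0.0696. Of 129 genes given by the naming rule 8 lost their call with library totals alone, 23 and 9 with limma and 1 with DESeq2, and the cause was not tested.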

Other observations

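Genes with no counts beside H69 were looked for after values had been seen. Of the genes called higher, 11 had 0 counts in every MRC5_CoH69 library, and 2 genes called lower had 0 counts in every MRC5_CoH196 library. Against a floor of 3 counts per library (0.159 CPM), KISS1R, the receptor of kisspeptin, was at least 13.8-fold higher, with 48, 30 and 47 counts in MRC5_CoH196 and 0 in every MRC5_Mo library. LEP, which encodes leptin, was at least 6.95-fold higher, with 20, 17 and 26 counts. Both genes were read in every library with H196, at low depth.

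CXCR4, the receptor of CXCL12, was among the genes too low to be tested, with 8, 14 and 13 counts with H196, 1, 0 and 0 with H69 and 0, 1 and 0 alone.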
